A study of Homo sapiens with 6 samples.

Results

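The genes described here encode the protein components of the cytosolic ribosome. They were chosen by symbol: RPL or RPS followed by digits, with an optional A or X, and RPLP0, RPLP1, RPLP2 and RPSA. The rule took 77 of the 27980 gene symbols in the count table, 46 for the large subunit and 31 for the small subunit. Their mRNA was measured by RNA sequencing in RKO cells, an established line from a poorly differentiated human colon carcinoma. In 3 shTRIP6 libraries the cells stably expressed a lentiviral hairpin against TRIP6, and in 3 shControl libraries a scrambled hairpin. Both groups had been selected with puromycin at 5 µg/ml for 2 to 3 weeks, starting 36 h after infection. The control labels also give the genotype as WT. The labels call the replicates biological, but do not say whether they came from separate infections or cultures, nor how many TRIP6 hairpin sequences were used, so the p-values below measure the spread between these libraries, which may be technical. An effect of the hairpin and a difference between the selected cell stocks cannot be told apart.

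A ribosome holds a single copy of nearly every ribosomal protein, and the acidic stalk proteins are the known exception. Most of these mRNAs start with a run of pyrimidines that begins with a C, the 5′ terminal oligopyrimidine (TOP) tract, through which mTOR signalling and LARP1 control their translation and stability. Subunits made in excess are degraded as free proteins, so mRNA levels need not equal protein levels. Mutations in several of these genes cause Diamond-Blackfan anaemia, an inherited failure of red cell production.

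TRIP6, an adaptor protein of focal adhesions and the nucleus, had 19.8, 19.4 and 19.5 CPM (counts scaled to library size and TMM factor) in the shTRIP6 libraries, against 73.9, 86.4 and 80.5 CPM in the shControl libraries. The groups lay far apart, with a log2 fold change of -2.04 ± 0.07 (SE, n = 3 each) and an adjusted p of 1.25e-14. Library totals were 31096598 to 32089298 counts in shTRIP6 and 29605764 to 30949334 counts in shControl. Replicates differed beyond sampling noise in every pair, most where shControl replicate 1 was involved, where chi-square over its degrees of freedom was 10.7 and 11.7, against 3.05 to 4.81 for the other pairs. Of 10 colorectal epithelial markers, VIL1, EPCAM and KRT20 had 0 counts in all 6 libraries. CDX2, CDH1, LGALS4 and MUC2 averaged 0.272 CPM or less in each group and, like VIL1, EPCAM and KRT20, were not tested. By contrast, KRT8 had 1635 to 1762 CPM in shTRIP6 and 1690 to 1872 CPM in shControl. KRT8 and KRT18 were not called, and KRT19 was higher, at 50.6 ± 3.15 CPM in shTRIP6 and 13.8 ± 2.27 CPM in shControl (1.87 on the log2 scale, adjusted p = 7.84e-12). Of the other marker lists, 8 leukocyte genes summed to 2.27 to 3.42 CPM in shTRIP6 and 0.504 to 1.7 CPM in shControl, with HBB at 0 throughout. Most of the shTRIP6 sum was CD14, called higher at 2.22 CPM in shTRIP6 and 0.52 CPM in shControl (2.08 on the log2 scale, adjusted p = 7.40e-05). The 8 fibroblast genes summed to 159.7 to 180.0 CPM in shTRIP6 and 114 to 127 CPM in shControl, a sum carried by THY1 at 153 CPM in shTRIP6 and 89.3 CPM in shControl. By gene, THY1 and PDGFRB were higher, whereas FAP (0.328 CPM in shTRIP6, 15 CPM in shControl), COL1A1, COL3A1 and DCN were lower, and DCN had 0 counts in all shTRIP6 libraries. The part of these marker differences in the results below was not tested, and in bulk RNA a change in the mix of cells and a change per cell cannot be told apart.

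The start regions of the genes at both ends of the response are shown because they carry the TOP tract that most of the family shares. Each window holds 15 bases before the RefSeq transcript start and 15 bases from it on, in the direction of transcription (GRCh38.p14). Capitals mark the run of C and T that starts with a C within 5 bases of the annotated start. The first 4 genes had the largest rises and the last 3 were among the 4 with the largest falls.
RPS12: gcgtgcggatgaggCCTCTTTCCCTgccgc
RPL10: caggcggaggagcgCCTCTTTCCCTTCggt
RPL37A: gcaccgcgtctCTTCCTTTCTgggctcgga
RPLP2: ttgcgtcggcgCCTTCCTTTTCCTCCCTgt
RPL22: tagttcgctcaCCTCCCTTTCTaactccgc
RPL35: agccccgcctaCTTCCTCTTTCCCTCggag
RPS24: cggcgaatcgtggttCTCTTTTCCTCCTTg
The windows lie at chr6:132814554-132814583 on the plus strand for RPS12, chrX:154398362-154398391 on the plus strand for RPL10 and chr2:216498829-216498858 on the plus strand for RPL37A. That of RPLP2 lies at chr11:809952-809981 on the plus strand. Those of RPL22 and RPL35 lie at chr1:6199581-6199610 and chr9:124861943-124861972 on the minus strand, and that of RPS24 at chr10:78033848-78033877 on the plus strand. The tracts were 10 to 17 bases long in the rising genes and 11 to 15 bases long in the falling genes, so both directions occurred with a tract in place.

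Over the whole family, a tract of a C and at least 4 further C or T, read on the transcribed strand only, was found in 53 of the 62 genes with a RefSeq promoter entry (85.5%). The same search found it in 6886 of 27305 symbols with such an entry (25.2%). Among tested genes with the tract, 38 of 52 were called higher and 4 lower (median log2 fold change 0.25). Of the 9 without it, 3 were called higher and 0 lower (median 0.05). Over the family 67.1% were called higher and 6.58% lower, and over all genes with 50 CPM or more 37.4% and 32.7%. The 9 genes are few, and calls among other genes with a tract are not given, so an effect of the tract was not tested. A match describes these letters only, and annotated starts can lie some bases from the start used in a cell.

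Ribosomal protein mRNAs were on the whole slightly more abundant in shTRIP6 than in shControl cells. Of the 76 genes tested, 51 were called higher (67.1%) and 5 lower (6.58%) by edgeR at a Benjamini-Hochberg adjusted p under 0.05, and 20 were not called. Over all 15473 genes tested, 60.1% were called, 29% higher and 31.2% lower. The changes were small: the median log2 fold change was 0.22 (quartiles 0.05 and 0.37, range -0.55 to 0.69), beside -0.0040 over all genes tested (quartiles -0.37 and 0.30). None of the 76 genes reached a log2 fold change of 1 in either direction, while 15.5% of all genes tested did. Since every tested member was abundant, with means of 50.3 to 1782 CPM over the 6 libraries, the 4788 genes with 50 CPM or more are the closer background: 37.4% of these were called higher, 32.7% lower and 4.09% reached a log2 fold change of 1.

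In 49 of the 76 genes all shTRIP6 libraries lay above all shControl libraries, in 5 all lay below, and in 22 the groups overlapped. Over all genes tested the shares without overlap were 31.8% above and 33.5% below. The matching shares for genes with 50 CPM or more, the closer background, are not given. The shTRIP6 libraries were the tighter group, with a median SD of 3% of the mean, against 6.72% in shControl. Replicate 1 was the lowest shControl library for 48 of the 76 genes and the highest for 13. With that library left out, 52 genes were called higher and 7 lower, and the median log2 fold change was 0.18. Replicate 3 was the lowest shTRIP6 library for 63 of the 76 genes. With shTRIP6 replicate 3 left out, 52 genes were called higher and 4 lower, and the median was 0.27. The genes thus shared shifts between libraries, so these counts are not independent of each other. RPS18, a protein of the small-subunit head, was listed at 0 counts in all 6 libraries and was not tested. Since ribosomes need this protein, the 0 is not read as absence of its mRNA, and a fault in the counting of this gene was not tested for. The small-subunit sums and the ratios of large to small sums lack its counts.

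**Figure D1:**
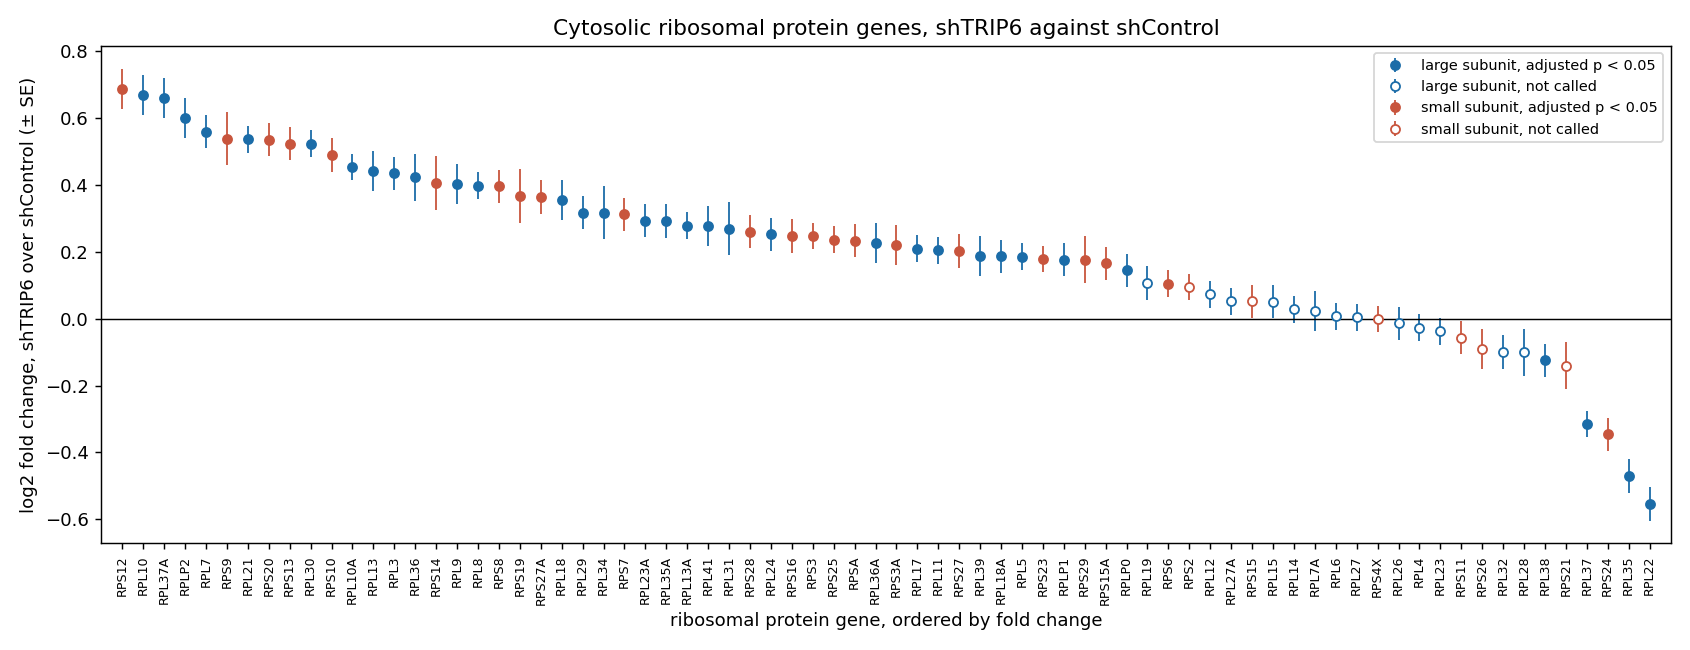
Log2 fold change of shTRIP6 over shControl (y axis, points with SE) for 74 of the 76 tested ribosomal protein genes in order of fold change (x axis); blue marks large-subunit and red small-subunit genes, and open points were not called. The order runs from RPS12 at 0.69 to RPL22 at -0.55, with 50 filled points above 0, 5 filled points below 0 and both subunits mixed along it.

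The subunits moved to a like extent. Large-subunit genes summed to 30760, 30735 and 29364 CPM in the shTRIP6 libraries, against 24893, 26822 and 26815 CPM in the shControl libraries. Small-subunit genes summed to 17766, 17907 and 16988 CPM in shTRIP6, against 14633, 15886 and 15557 CPM in shControl. In both sums every shTRIP6 library lay above every shControl library, by a factor of 1.16 for the large subunit and 1.14 for the small subunit between the group means. By summed CPM, the whole family came to 4.78 ± 0.129% of the TMM-scaled library size in shTRIP6 and 4.15 ± 0.175% in shControl (SD, n = 3 each).

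The ratio of the large to the small sum was 1.731, 1.716 and 1.729 in the shTRIP6 libraries and 1.701, 1.688 and 1.724 in the shControl libraries. These ranges overlapped, since shControl replicate 3 lay between shTRIP6 libraries. By gene, 29 of 46 large-subunit genes were called higher and 4 lower, with a median log2 fold change of 0.21. Of the 30 tested small-subunit genes, 22 were called higher and 1 lower, with a median of 0.24. The spread within each subunit was far wider than the difference between their medians, with ranges of -0.55 to 0.67 in the large and -0.35 to 0.69 in the small subunit.

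**Figure D2:**
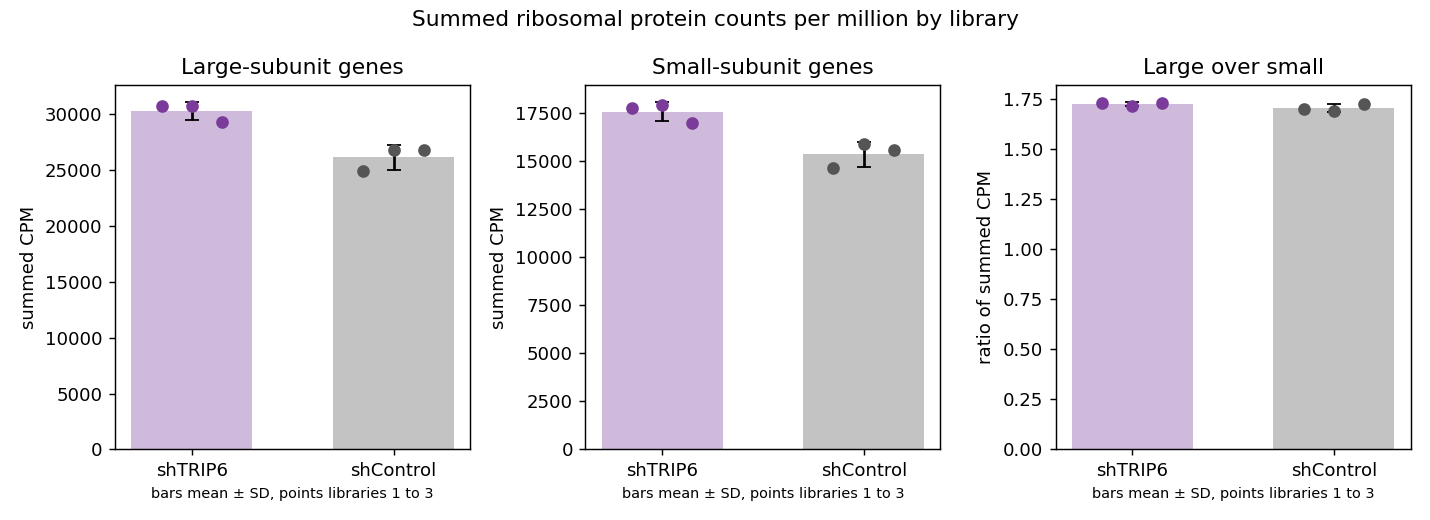
Summed CPM of large-subunit genes (left), of small-subunit genes (middle) and their ratio (right) in shTRIP6 and shControl; bars are means with SD and points are the 3 libraries of each group. Both sums were higher in every shTRIP6 library, while the ratios of 1.716 to 1.731 in shTRIP6 and 1.688 to 1.724 in shControl overlapped.

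The largest rises came from proteins of different ribosomal regions. RPS12, a protein of the small-subunit beak, had 262, 276 and 263 CPM in shTRIP6 libraries, against 144, 183 and 170.3 CPM in shControl libraries. The groups did not overlap, and the log2 fold change was 0.69 ± 0.06 (adjusted p = 3.07e-08). RPL10, which completes the peptidyl transferase centre late in assembly, had 1387, 1431 and 1366 CPM in shTRIP6, against 763, 939 and 929 CPM in shControl. Replicate 1 was again the low control, and every shTRIP6 library lay well above all 3 controls, with a log2 fold change of 0.67 ± 0.06 (adjusted p = 1.26e-08). RPL37A, a zinc-binding protein of the large subunit, had 408, 403 and 392 CPM in shTRIP6 and 221, 264 and 275 CPM in shControl, a log2 fold change of 0.66 ± 0.06 (adjusted p = 2.73e-08) with no overlap. RPLP2, an acidic protein of the stalk that recruits translation factors, had 291, 279 and 267 CPM in shTRIP6 and 171, 202 and 179 CPM in shControl, also without overlap (0.60 ± 0.06, adjusted p = 3.54e-08). Next in order came RPL7 at 0.56, and RPL21, RPS9 and RPS20 at 0.54 each, of which RPL21 had nearly the same counts as its pseudogene entry RPL21P28. RPS9, which helps form the mRNA entry, had the largest control SD of these relative to its mean. It averaged 440.0 ± 20.6 CPM in shTRIP6 and 303 ± 50.9 CPM in shControl (SD, n = 3 each).

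A set of 5 genes went the other way, and 4 of these falls were clear of the replicate spread. RPL22, an RNA-binding protein at the surface of the large subunit, had 158, 161 and 158 CPM in shTRIP6, against 237, 239 and 223 CPM in shControl. All 3 shTRIP6 values lay below all 3 shControl values, with a log2 fold change of -0.55 ± 0.05 (adjusted p = 5.95e-09). RPL35, which lies at the rim of the exit tunnel, had 328, 320 and 295 CPM in shTRIP6 and 439, 445 and 422 CPM in shControl, without overlap (-0.47 ± 0.05, adjusted p = 7.29e-08). RPS24, a small-subunit protein mutated in Diamond-Blackfan anaemia, had 488, 478 and 479.6 CPM in shTRIP6 and 657, 624 and 555 CPM in shControl. Its shControl values were scattered but all lay above the shTRIP6 values (-0.35 ± 0.05, adjusted p = 1.20e-05). RPL37, another zinc-binding protein, had 383, 391 and 357 CPM in shTRIP6 and 482, 462 and 464 CPM in shControl, without overlap (-0.32 ± 0.04, adjusted p = 6.56e-06).

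RPL38, which in mouse is needed for the translation of a set of Hox mRNAs, was the marginal member of this group. It had 198, 188 and 175 CPM in shTRIP6 and 206, 201 and 205 CPM in shControl, a log2 fold change of -0.12 ± 0.05 (adjusted p = 0.0379). The call was lost under upper-quartile scaling (adjusted p = 0.197) and on leaving out shTRIP6 replicate 2 or 3 or shControl replicate 2 or 3 (adjusted p of 0.110, 0.277, 0.0534 and 0.0762). RPS21 at -0.14, RPL28 at -0.10 and RPL32 at -0.10 were next in order and were not called, with adjusted p of 0.0851, 0.231 and 0.0918. Without shControl replicate 1, RPS21 and RPL32 were called lower, with adjusted p of 1.31e-04 and 0.00303, and without shControl replicate 2 so was RPL28 (0.0230).

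**Figure D3:**
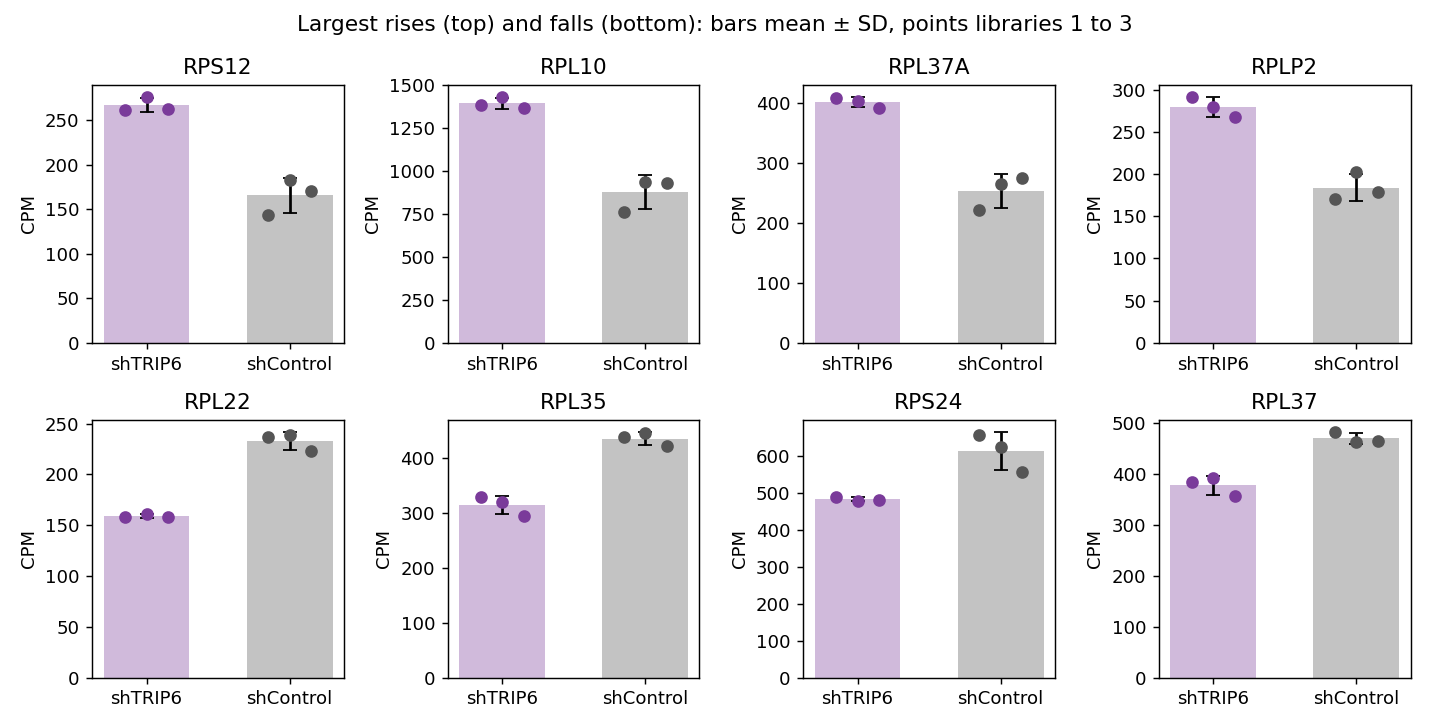
CPM of the 4 ribosomal protein genes with the largest rises (top row: RPS12, RPL10, RPL37A, RPLP2) and the 4 with the largest falls (bottom row: RPL22, RPL35, RPS24, RPL37) in shTRIP6 and shControl; bars are means with SD and points are the 3 libraries of each group. No point of one group reaches the other in any of the 8 panels.

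Further genes are given by their place in the ribosome, a grouping made with the values known. It left 26 large-subunit genes without a place, of which 15 were called higher and 2 lower, with a median log2 fold change of 0.27. Counts by place stand against 67.1% called higher and 6.58% lower over the family. Over genes with 50 CPM or more the shares were 37.4% and 32.7%. At the stalk, RPLP0, the protein that anchors the acidic stalk proteins, had 1577 ± 58.1 CPM in shTRIP6 and 1426 ± 93.1 CPM in shControl (SD, n = 3 each), a log2 fold change of 0.15 (adjusted p = 0.0109). RPLP1, the partner of RPLP2 in the stalk dimers, had a log2 fold change of 0.18 (adjusted p = 0.00685). RPLP2 thus stood at 0.60 while its partner and its anchor stood at 0.18 and 0.15. RPL12 at the stalk base was not called (0.07, adjusted p = 0.152). The RPLP0 call was lost without shTRIP6 replicate 2 (adjusted p = 0.0521).

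RPL5 and RPL11, which with 5S rRNA form the particle that binds MDM2 and so stabilises p53, moved together. RPL5 had 607 ± 5.85 CPM in shTRIP6 and 533 ± 18.7 CPM in shControl, a log2 fold change of 0.19 (adjusted p = 6.62e-04). RPL11 had 582 ± 16.2 CPM in shTRIP6 and 505 ± 22.3 CPM in shControl, a log2 fold change of 0.21 (adjusted p = 4.96e-04). Both lay close to the median of the family.

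All 5 genes for proteins at the peptidyl transferase centre, the tRNA sites and the L1 stalk (RPL3, RPL8, RPL10, RPL10A and RPL36A) rose, with log2 fold changes of 0.23 to 0.67. For RPL36A, the least of these at 0.23, the groups overlapped, with shTRIP6 replicate 3 at 406 CPM and shControl replicate 1 at 415 CPM. RPL3, which lines the peptidyl transferase centre, averaged 1251 ± 23.7 CPM in shTRIP6 and 926 ± 85.3 CPM in shControl. Around the exit tunnel, 4 of 9 genes rose and 2 fell, RPL22 and RPL35, and the median log2 fold change was 0.11. With so few genes, these counts do not set the tunnel apart from genes with 50 CPM or more. RPL4, which reaches into the tunnel, had 1212 CPM in shTRIP6 and 1235 CPM in shControl and was not called (-0.03, adjusted p = 0.586).

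On the small subunit, all 3 beak genes rose: RPS12, RPS10 at 0.49 and RPS27A at 0.37. RPS27A is made as a fusion with ubiquitin, and had 500.4 ± 5.56 CPM in shTRIP6 and 388 ± 34.9 CPM in shControl (adjusted p = 9.02e-06). Of the 4 genes at the mRNA entry and decoding site 3 rose, with a median log2 fold change of 0.21. The exception was RPS2, the most abundant member by CPM, at 1841 ± 80.2 CPM in shTRIP6 and 1724 ± 68.4 CPM in shControl (0.09, adjusted p = 0.0581). Of the 8 at the mRNA exit and platform 6 rose and 0 fell. Among them RPSA, known also as a laminin receptor, had 1481 ± 48.9 CPM in shTRIP6 and 1259 ± 98.1 CPM in shControl (0.23, adjusted p = 3.97e-04).

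In the head, 5 of 7 tested genes rose and 0 fell. In the body, 5 of 8 rose and 1, RPS24, fell. RPS6, the substrate of S6 kinase used to read mTOR activity, had 803 ± 12.1 CPM in shTRIP6 and 747 ± 29.5 CPM in shControl (0.10, adjusted p = 0.0335). That call was lost without scaling factors, with a replicate block and on leaving out shTRIP6 replicate 1 or 2 or shControl replicate 3, with adjusted p of 0.0563 to 0.141. Of 9 listed genes mutated in Diamond-Blackfan anaemia, 6 rose and 1, RPS24, fell, and RPS26 was among those not called. The list does not hold every gene linked to that disease, so falls of other such genes are not counted here. RPS19, the gene most often mutated in that disease, had 509 CPM in shTRIP6 and 394 CPM in shControl (0.37, adjusted p = 6.05e-04).

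Levels per length differed widely between genes whose proteins are needed in equal number. With CPM divided by the length of the shortest annotated transcript that holds the principal coding sequence, the tested genes ran from 55.1 to 2635 CPM per kb, with a median of 671. RPL41, which encodes the smallest of these proteins, stood highest at 2635 CPM per kb, and RPS2 at 1809 and RPL13 at 1594 CPM per kb were also among the 4 highest. The 4 lowest were RPL37 at 55.1, RPL37A at 89.7, RPL22 at 94.4 and RPS28 at 94.4 CPM per kb. These low values divide by long annotated transcripts of 7686 nt for RPL37, 3647 nt for RPL37A, 2078 nt for RPL22 and 1326 nt for RPS28, and the isoforms made in RKO cells are not resolved by the counts. RPL41 rose by 0.28 and RPL13 by 0.44 on the log2 scale, and RPS28 by 0.26. Across the 76 genes, the log2 fold change had a rank correlation of -0.05 with CPM per kb and of 0.03 with transcript length. These are descriptions across genes that share the same 6 libraries. They and the range of levels rest on annotated lengths, which were long for some genes beyond the 4 lowest too. The limit on isoforms therefore applies to them as well.

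The paralogs, genes related in sequence to a ribosomal protein gene, lie outside the symbol rule. Whether their proteins take its place in the ribosome was not tested. RPL22L1, the paralog of RPL22, had 230.5, 230.0 and 229 CPM in shTRIP6, against 135, 143 and 122 CPM in shControl. It rose where RPL22 fell, with a log2 fold change of 0.78 ± 0.05 (adjusted p = 4.00e-10). For every 100 counts of RPL22 there were 146, 143 and 145 counts of RPL22L1 in shTRIP6, against 57, 59.9 and 54.7 in shControl, so that the more abundant of the pair by counts was RPL22L1 in each shTRIP6 library and RPL22 in each shControl library. In mouse cells the Rpl22 protein is known to hold down Rpl22l1 mRNA.

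The other paralogs followed no single direction. RPL36AL fell by 0.26 on the log2 scale while RPL36A rose by 0.23, and its counts per 100 of RPL36A were 23.1 ± 2.14 in shTRIP6 and 32.4 ± 3.02 in shControl (SD, n = 3 each). RPL7L1 rose by 0.38, RPL39L by 0.40 and RPL26L1 by 0.21, and RPS27L was not called (-0.16, adjusted p = 0.0543). RPL3L and RPL10L had 0 counts in all libraries. FAU, in which RPS30 is fused to a ubiquitin-like protein, had 227 ± 10.4 CPM in shTRIP6 and 155 ± 18.4 CPM in shControl (0.55, adjusted p = 9.60e-07).

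**Figure D4:**
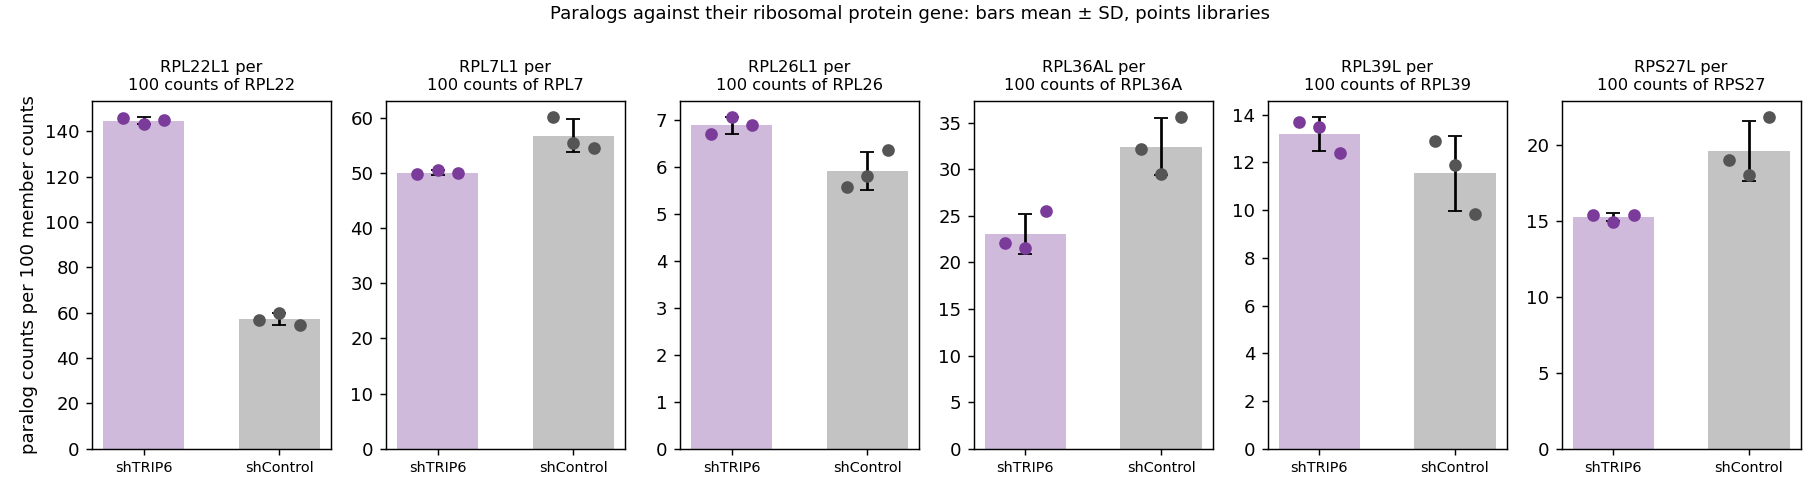
Counts of each paralog per 100 counts of its ribosomal protein gene (y axis, a scale of its own in each panel) in shTRIP6 and shControl; bars are means with SD and points are the 3 libraries of each group. RPL22L1 stood at 145 ± 1.67 in shTRIP6 and 57.2 ± 2.61 in shControl, a ratio of 2.53, while the other 5 ratios lay between 0.712 and 1.16.

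Position on the chromosome went with the size and direction of the change. Each gene was set beside the nearest tested coding genes, 25 on each side, leaving out ribosomal protein genes. Genes near chromosome ends, such as RPL35A, RPS7, RPL8 and RPL13, had 26 to 41 neighbours in all. Across the 76 genes the log2 fold change had a rank correlation of 0.53 with the median of these neighbours. The same measure was 0.39 over 4607 other coding genes with 50 CPM or more, so the relation was seen there too. The points share the same 6 libraries, and genes that lie close together share neighbours. In the 25 genes with the lowest neighbour medians (-0.61 to -0.12) the median log2 fold change was 0.09, in the 25 middle genes it was 0.21, and in the 26 with the highest (0.06 to 0.47) it was 0.36.

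Of the 76 ribosomal protein genes, 65 had a higher log2 fold change than their neighbours' median, and the median difference was 0.24. The median of the neighbour medians was -0.06, beside 0.22 for the family, so this count largely restates the rise of the family. The matching share of other coding genes is not given. RPL35 on chromosome 9 fell by 0.47 among neighbours with a median of -0.609, 74% of which were called lower. RPL37 on chromosome 5 lay at -0.32 among neighbours at -0.402, and RPL22 on chromosome 1 at -0.55 among neighbours at -0.346. RPS24 on chromosome 10 was the fall with the least like surroundings, at -0.35 among neighbours at -0.054. Among the rises, RPLP2 had neighbours at 0.472, whereas RPS12 stood 0.747 above its neighbours and RPL10 0.577 above its own. RPL12 on chromosome 9, whose log2 fold change of 0.07 was not called, stood 0.556 above neighbours at -0.482. The cause of this regional pattern was not tested.

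**Figure D5:**
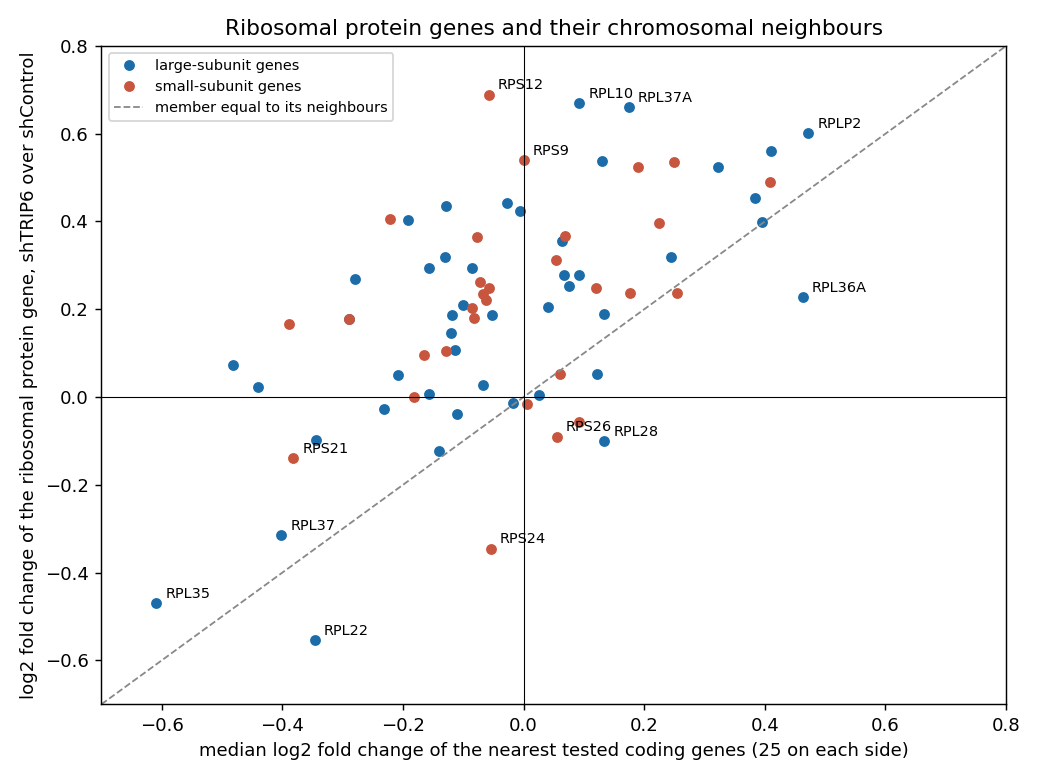
Log2 fold change of each of the 76 ribosomal protein genes (y axis) against the median log2 fold change of its nearest tested coding genes, 25 on each side (x axis); the dashed line marks equal values, and blue and red mark the subunits. Most points, 65 of 76, lie above the line, and the cloud runs upward from RPL35 to RPLP2 with RPS12 and RPS24 far from it on opposite sides.

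By chromosome, the 15 chromosomes with 3 or more tested ribosomal protein genes had member medians that followed those of the other genes (rank correlation 0.78, n = 15). Chromosomes 8 and 9 were the extremes for the other genes. On chromosome 8, where the other genes had the highest median of 0.22, RPL7, RPL8, RPL30 and RPS20 all rose, by 0.40 to 0.56. On chromosome 9, with the lowest median of -0.36, RPS6 rose, RPL35 fell, and RPL7A and RPL12 were not called. Chromosome 19 holds the most, with 12 tested, of which 9 rose and 0 fell, with a median of 0.25 beside 0.03 for the other genes there. Of the other genes, 49.5% were called higher on chromosome 8, 14% on chromosome 9 and 27.7% on chromosome 19.

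Genes that work with ribosomal proteins were set beside them. Their counts stand against 29% called higher and 31.2% lower over all genes tested, and 37.4% and 32.7% over genes with 50 CPM or more. Of 18 other TOP mRNAs for translation factors and related proteins, 14 rose and 1 fell, with a median log2 fold change of 0.23, close to that of the ribosomal protein genes. EEF1D, a subunit of the elongation factor that recharges EEF1A, rose by 0.51 and TPT1 by 0.41, and EIF3L, a subunit of initiation factor 3, fell by 0.25. Among 15 regulators of TOP mRNA translation, 3 rose and 8 fell, with a median of -0.10. RPTOR, the subunit that brings substrates to mTORC1, had 39.3 ± 1.32 CPM in shTRIP6 and 83.1 ± 4.9 CPM in shControl (-1.08, adjusted p = 2.86e-11). EIF4EBP2, a repressor of cap-dependent initiation, fell by 0.84, while its relative EIF4EBP1 rose by 0.48 and LARP4 by 0.18. LARP1, which binds the TOP tract, had 519 ± 3.11 CPM in shTRIP6 and 557 ± 12.9 CPM in shControl (-0.10, adjusted p = 0.033). Of 9 chaperones dedicated to single ribosomal proteins 3 rose, a share near that background, and 0 fell, with a median of 0.12. AAMP, related to the yeast Rpl10 chaperone Sqt1, rose by 0.67, and RPS19BP1, which binds RPS19, by 0.40.

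Several members share reads with other entries of the table, which limits what their values say about one gene. RPL21P28 had the same counts as RPL21 to within 5 counts in each library, so the value of RPL21 cannot be assigned to either. RPL13AP5 held 85.1% as many counts as RPL13A, and the read-through genes RPL17-C18orf32, RPS10-NUDT3 and RPL36A-HNRNPH2 held 83.2%, 88.6% and 102% as many as RPL17, RPS10 and RPL36A. RPSAP58 held 25.3% as many as RPSA. Exons of 42 of the 77 members overlap another gene of the table in GENCODE release 29, and the strand setting of the counts was not stated in any source used here. For RPL36, the overlapping gene LONP1 had 61.8% as many counts in shTRIP6 and 90.4% in shControl. Every member also has pseudogenes in the RefSeq gene table, 1966 in all and 137 for RPL21 alone. The number of pseudogenes had a rank correlation of 0.00 with the log2 fold change over the 76 genes. Adding the counts of the 31 pseudogene symbols in the table to their parent genes left 51 genes called higher and 5 lower.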

How the data were processed

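The deposited files of the 6 libraries held raw read counts per gene symbol, made by the authors without normalization, 27980 symbols each. TopHat2, edgeR, limma and the build hg38 appear, without role or version, in the submitters' processing notes. No source used here states the counter, its annotation or its strand setting. Groups came from the labels. All genes were fitted by the quasi-likelihood test of edgeR 4.0.16 in R 4.3.3, with TMM scaling, the filterByExpr filter and group as the only term, and p-values were Benjamini-Hochberg adjusted over the 15473 genes tested. Genes under 0.05 were called. The SE is the absolute log2 fold change over the square root of F. CPM used TMM-scaled library sizes (factors 0.9924 to 1.007), and 3 counts, the limit that a count of 0 allows, were 0.0935 to 0.101 CPM. That limit covers counting error only, because no molecular identifiers are named and reads may repeat molecules.

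The ribosomal protein genes and all lists were chosen with earlier results of these data known, and the roles in the ribosome were assigned after values were seen. The genes named were TRIP6, the 8 highest and 8 lowest log2 fold changes among members with 10 CPM or more, every member called lower, fixed members by role, the 4 highest and 4 lowest levels per kb, untested members, paralogs and ubiquitin fusions, and up to 2 rises and 2 falls of each other list. A few genes that meet this rule are not reported here. Further members in the paragraphs on roles, positions and shared counts, as well as LARP1 and the markers, were named after their values were seen. Coordinates, exons and transcript lengths came from GENCODE release 29 (GRCh38). Start regions and pseudogenes came from RefSeq. Alternatives were DESeq2 1.42.0, voom from limma 3.58.1, scaling by RLE, by the upper quartile or not at all, testing without a filter or with 1 CPM in 3 libraries, a replicate block, added pseudogene counts, and leaving out each library.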

Additional observations from a re-analysis of the deposited data

How the results depend on the processing

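Over the alternatives that kept all libraries, 49 to 54 ribosomal protein genes were called higher and 4 to 5 lower, beside 51 and 5. Leaving out each library in turn gave 47 to 52 higher and 4 to 7 lower, with 8460 to 9478 genes called in all. Upper-quartile scaling shifted the median of all genes to 0.04 and the share of calls that were higher to 53.7%, beside 48.2%. With pseudogene counts added, which counts shared reads a further time, the ratio of large to small sums was 1.7768 in shTRIP6 and 1.7466 in shControl. Replicate numbers did not pair the libraries, with correlations of deviations of -0.045 to -0.023 between equal numbers. A fit with the replicate number as a block called 50 members higher and 5 lower and 9079 genes in all, and moved RPS6 to an adjusted p of 0.0563. The least abundant tested member, RPS29, averaged 50.3 CPM, and its call as higher (adjusted p = 0.0469) was lost under several of these alternatives.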
